A study of Mus musculus with 18 samples.

Results

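Expression of 10 mouse genes of the epithelial-mesenchymal transition was followed through liver tumors driven by different forms of YAP. The set held 4 effectors (Vim, Sparc, Tnc and Fn1) and 6 transcription factors (Snai1, Snai2, Zeb1, Zeb2, Twist1 and Twist2). The members were chosen by gene name, and all 10 were found among the 43346 genes of the tumor table. All 10 passed a filter on low counts that left 18318 genes for testing. Every tumor had received myr-AKT, an AKT kinase tethered to the membrane and thereby active, together with a form of YAP, the transcriptional coactivator of the Hippo pathway. YAP-S tumors carried YAP with S127A, which removes a phosphorylation site that holds YAP in the cytoplasm. YAP-SY tumors carried S127A/Y357F, which also removes a tyrosine. The tumors of each form were labelled as cholangiocarcinoma (CCA, cancer of the bile duct lineage) or as mixed, with 3 tumors in each of the 4 groups. No tumor lacked myr-AKT or a mutated YAP, so the YAP-S tumors serve as the reference for YAP-SY. The promoter that drove the transgenes, the cells that took them up and the age of the mice are not given in the sources used here. SB1 is a cell line with the YAP-S CCA genotype label. Its 3 samples come from a single line and were counted in a separate table, and SY1, the cell line labelled as YAP-SY CCA, was not analysed here. The labels number the tumors but do not say that each came from a mouse of its own, so p-values measure the spread between these tumors.

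In the epithelial-mesenchymal transition, epithelial cells loosen their junctions and take up a migratory, matrix-producing state. Factors of the Snail (Snai1, Snai2), Zeb (Zeb1, Zeb2) and Twist (Twist1, Twist2) families start and hold this state, and Snail and Zeb factors repress E-cadherin through E-boxes in its promoter. The effectors are products of the mesenchymal cell: vimentin (Vim) is its intermediate filament, and osteonectin (Sparc), tenascin C (Tnc) and fibronectin (Fn1) are secreted into the matrix. In the liver these genes are also used by stellate cells, fibroblasts, endothelium and some leukocytes, and hepatocytes secrete plasma fibronectin. A bulk tumor sums all of these cells, so fewer cells of a type and less RNA per cell cannot be told apart in any value below.

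Promoter windows were read for the members, since several of them moved together in the CCA tumors. RefSeq windows on GRCm38.p6 run from 250 bases before to 50 bases after a gene's start, and 7 of the 10 members matched at least 1 window. Fn1, Snai2 and Zeb1 had no entry. Each window was searched on both strands for the E-box CAGGTG, or CACCTG on the opposite strand, bound by Snail and Zeb factors. It was also searched for the TEAD motif GGAATG, or CATTCC on the opposite strand, through which YAP reaches DNA, and for the AP-1 motif TGACTCA, or TGAGTCA on the opposite strand. These letters do not overlap each other. Of 32851 windows of 300 bases, 20.2% held the E-box, 14.7% the TEAD motif and 5.2% the AP-1 motif. Windows of 4 members that were lower in YAP-SY CCA tumors are shown 5′ to 3′ on the gene's strand, in lower case with the matches in capitals. Vim lies on the plus strand (chr2:13574061-13574360), Sparc on the minus strand (chr11:55420031-55420330), Snai1 on the plus strand (chr2:167537945-167538244), and the fourth Zeb2 window on the minus strand (chr2:45110228-45110527).
Vim: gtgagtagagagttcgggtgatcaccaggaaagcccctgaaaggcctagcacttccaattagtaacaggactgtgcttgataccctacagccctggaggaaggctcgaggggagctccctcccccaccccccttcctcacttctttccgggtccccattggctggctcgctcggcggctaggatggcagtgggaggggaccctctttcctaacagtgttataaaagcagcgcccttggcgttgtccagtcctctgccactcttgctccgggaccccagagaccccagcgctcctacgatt
Sparc: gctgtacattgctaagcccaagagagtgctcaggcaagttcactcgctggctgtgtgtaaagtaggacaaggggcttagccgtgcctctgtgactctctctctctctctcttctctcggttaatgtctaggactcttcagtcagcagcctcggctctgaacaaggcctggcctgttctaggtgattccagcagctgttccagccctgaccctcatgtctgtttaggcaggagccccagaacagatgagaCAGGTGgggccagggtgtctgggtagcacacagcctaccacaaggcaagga
Snai1: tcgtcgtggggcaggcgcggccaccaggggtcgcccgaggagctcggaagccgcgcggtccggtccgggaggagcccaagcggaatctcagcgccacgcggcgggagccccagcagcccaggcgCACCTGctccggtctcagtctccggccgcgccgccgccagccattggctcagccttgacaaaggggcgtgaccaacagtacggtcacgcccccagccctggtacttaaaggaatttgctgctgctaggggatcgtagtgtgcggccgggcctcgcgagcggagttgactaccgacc
Zeb2: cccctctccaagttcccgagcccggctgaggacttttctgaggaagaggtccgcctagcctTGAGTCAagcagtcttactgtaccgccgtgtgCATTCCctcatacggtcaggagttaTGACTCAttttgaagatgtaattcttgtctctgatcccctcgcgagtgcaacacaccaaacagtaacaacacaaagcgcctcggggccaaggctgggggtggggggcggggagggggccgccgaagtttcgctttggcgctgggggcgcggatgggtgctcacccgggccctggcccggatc
The Sparc window held the E-box at bases 250 to 255, across the annotated start, and the Snai1 window held it at bases 125 to 130. The Zeb2 window held AP-1 letters at bases 62 to 68 and 119 to 125, with the TEAD letters between them at bases 94 to 99. None of these letters was found in the other 3 Zeb2 windows or in the windows of Vim, Tnc, Twist1 or Twist2. A match describes the letters only, and no binding was measured.

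Each tumor had 30656499 to 130035221 counts in all, and each SB1 sample had 25341968 to 30541185. Values are CPM, counts set to a common library size and scaled by TMM, a method that assumes that most genes do not change, and levels are compared between genes only per kilobase of the gene length deposited with the counts. YAP-SY CCA tumor 1 stood apart, since only 18207 genes held a count there and each of the other 11 tumors had from 20440 to 24391, and results that rest on it are also given without it. Markers went partly against the CCA label of the YAP-SY tumors. Summed over 10 cholangiocyte markers, YAP-SY CCA tumors held 2778 to 4209 CPM, against 7530 to 10910 CPM among YAP-S CCA, 9493 to 10240 CPM among YAP-S mixed and 4324 to 16480 CPM among YAP-SY mixed tumors. Spp1 made up most of this sum in the CCA tumors, at a mean of 3274 CPM in YAP-SY and 8489 CPM in YAP-S. Other markers ordered the YAP-S groups differently. Krt19 averaged 60.3 CPM in YAP-S CCA and 24.8 CPM in YAP-S mixed tumors, and Cd24a 208 and 93.1 CPM. Epcam was level at 12.5 and 12.6 CPM, and 0 of the 10 markers passed the test used below between these groups. Of the defining markers, Cldn4 was at 0 counts in YAP-SY CCA 6, and Krt19, Krt7 and Epcam were detected in every tumor. Summed over 10 hepatocyte markers, YAP-SY CCA tumors held 133200 to 151900 CPM, against 46530 to 56500 CPM among YAP-S CCA, 78070 to 85020 CPM among YAP-S mixed and 83510 to 108700 CPM among YAP-SY mixed tumors. Alb made up most of this sum in the CCA tumors, at a mean of 105400 CPM in YAP-SY and 36970 CPM in YAP-S.

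Levels per kilobase separated the 10 members into an abundant and a scarce class. In YAP-S CCA tumors Sparc led at 313 ± 18.7 CPM per kb (mean ± SD, n = 3), followed by Fn1 at 183 ± 4.13 and Vim at 69.0 ± 8.68 CPM per kb. Tnc, Zeb1, Zeb2, Snai2 and Snai1 stood between 1.29 and 4.35 CPM per kb on average. Twist1 at 0.236 ± 0.0932 and Twist2 at 0.141 ± 0.0383 CPM per kb were the lowest, and their ranges overlapped. In YAP-SY CCA tumors the order changed: Fn1 led at 182 ± 17.6 CPM per kb, ahead of Sparc at 73.3 ± 20.2 and Vim at 11.1 ± 1.25 CPM per kb. Zeb1 came next at 3.05 ± 0.192 CPM per kb, and Tnc, at 0.489 ± 0.112 CPM per kb, stood below Zeb1, Zeb2 and Snai2.

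**Figure D1:**
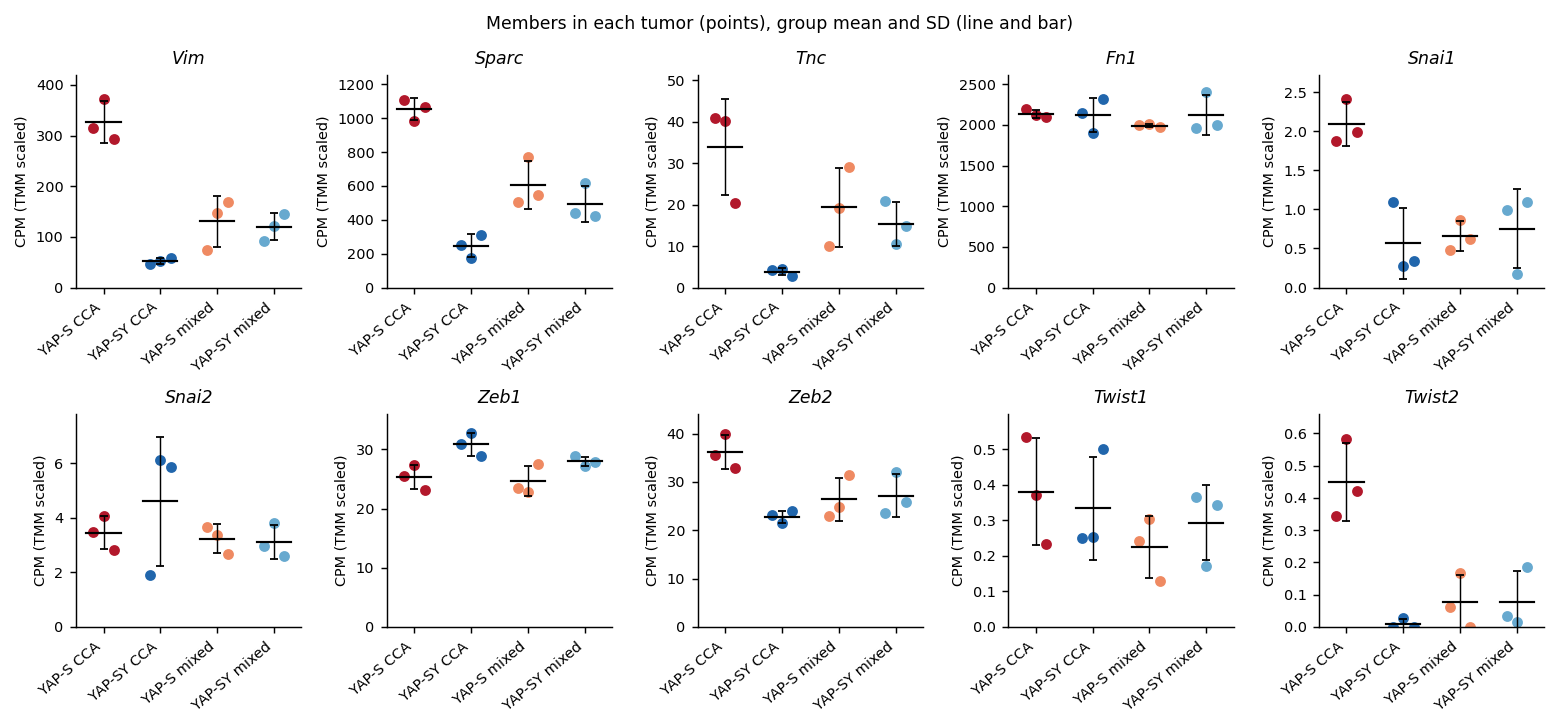
Level of each of the 10 members in each of the 12 tumors, in TMM-scaled CPM on a linear axis from 0, with a separate scale for each gene. Points are tumors, lines are group means and bars are SD (n = 3); the YAP-S CCA tumors are the highest 3 points for Vim, Sparc, Snai1, Zeb2 and Twist2, and the YAP-SY CCA tumors are the lowest 3 for Vim, Sparc and Tnc.

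Within CCA tumors, YAP-SY was set against YAP-S. This asks what the further loss of the YAP tyrosine goes with in tumors labelled as bile duct cancer. Of the 10 members, 6 were lower in YAP-SY (Vim, Sparc, Tnc, Snai1, Zeb2 and Twist2) and 0 were higher, in edgeR's quasi-likelihood test, adjusted by Benjamini and Hochberg's method over all genes tested. The same test called 20.8% of all genes lower and 18.3% higher. The median log2 fold change was -1.26 over the members and -0.0011 over all genes. Ranges of the 2 groups did not overlap for 6 members that were lower and for 1 that was higher (Zeb1), where 28.3% of all genes were lower and 24.3% higher without overlap. The 10 members were chosen with results of these tumors known, so the counts describe them and do not test them as a set.

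Vim (ENSMUSG00000026728, mm10 chromosome 2, 13573927 to 13582826), the filament that gives mesenchymal cells their mechanical resilience, was at 315, 373 and 293 CPM among YAP-S CCA tumors 3, 4 and 5. The level was 47.1, 51.6 and 58.9 CPM among YAP-SY CCA tumors 1, 6 and 8. The groups lay far apart, with the lowest YAP-S CCA tumor above every YAP-SY CCA tumor, and both were tight within themselves. Vim was lower in YAP-SY by a factor of 6.23 (log2 -2.64, SE 0.27, adjusted p 0.000106, edgeR quasi-likelihood test).

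Sparc (ENSMUSG00000018593, chromosome 11, 55394500 to 55420080), a collagen-binding matrix protein, was at 1111, 987 and 1068 CPM among the YAP-S CCA tumors. The YAP-SY CCA tumors held 253, 176 and 312 CPM. Sparc was thus the effector with the most transcript per length in YAP-S CCA, and it did not overlap between the groups. It was lower in YAP-SY by a factor of 4.28 (log2 -2.10, SE 0.24, adjusted p 0.000131, edgeR).

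Tnc (ENSMUSG00000028364, chromosome 4, 63959785 to 64047015), a matrix glycoprotein of wounds and tumor stroma, was at 40.9, 40.2 and 20.5 CPM among YAP-S CCA tumors 3, 4 and 5. The level was 4.15, 4.44 and 2.81 CPM among YAP-SY CCA tumors 1, 6 and 8. YAP-S CCA tumor 5 was at about the level of the mixed tumors, yet still above every YAP-SY CCA tumor. Tnc had the largest fitted difference among the effectors, lower in YAP-SY by a factor of 8.90 (log2 -3.15, SE 0.41, adjusted p 0.000224, edgeR).

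Fn1 (ENSMUSG00000026193, chromosome 1, 71585520 to 71653200) stood apart from the other effectors. It was at 2192, 2124 and 2098 CPM among YAP-S CCA and at 2141, 1905 and 2314 CPM among YAP-SY CCA tumors. The ranges overlapped, and the difference was not past the threshold (log2 fold change -0.01, SE 0.15, adjusted p 0.957, edgeR). When libraries were scaled by their size alone, Fn1 was called lower in YAP-SY (-0.57, adjusted p 0.00844), and the median of all genes shifted by -0.56 (log2) as well. Fibronectin is made by hepatocytes in quantity, and hepatocyte markers were higher in the same YAP-SY tumors. Their part in the Fn1 value was not tested.

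In each family of factors 1 member was called lower and the other was not called, and the difference between relatives was not tested in this fit. Snai1 (ENSMUSG00000042821, chromosome 2, 167538195 to 167542814), the founding Snail repressor of E-cadherin, was at 1.88, 2.41 and 1.99 CPM among YAP-S CCA tumors. The level was 1.09, 0.280 and 0.334 CPM among YAP-SY CCA tumors 1, 6 and 8, from 48, 10 and 12 counts. Tumor 1 was the highest of its group, and the groups did not overlap. Snai1 was lower in YAP-SY by a factor of 3.64 (log2 -1.86, SE 0.64, adjusted p 0.0346, edgeR). Without YAP-SY CCA tumor 1 the difference grew to -2.76 (adjusted p 0.00915), and the call was lost without any other of the 6 CCA tumors, at adjusted p from 0.0582 (without YAP-S CCA 3) to 0.111 (without YAP-SY CCA 6).

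Snai2 (ENSMUSG00000022676, chromosome 16, 14705852 to 14709395), the Slug repressor, was at 3.47, 4.05 and 2.83 CPM among YAP-S CCA tumors. The level was 1.88, 6.09 and 5.84 CPM among YAP-SY CCA tumors 1, 6 and 8. Tumor 1 was below, and tumors 6 and 8 above, the whole YAP-S CCA range. The difference did not pass (log2 fold change 0.41, SE 0.36, adjusted p 0.397, edgeR). Without YAP-SY CCA tumor 1 it did, at 0.79 (adjusted p 0.0278), in the direction opposite to Snai1, and under library size alone the estimate with all tumors was -0.16 (adjusted p 0.758).

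Zeb2 (ENSMUSG00000026872, chromosome 2, 44983634 to 45117395), a zinc finger repressor that binds Smad proteins, was at 35.7, 39.9 and 32.9 CPM among YAP-S CCA tumors. The level was 23.1, 21.5 and 23.9 CPM among YAP-SY CCA tumors. The difference was small but tight, with no overlap. Zeb2 was lower in YAP-SY by a factor of 1.58 (log2 -0.66, SE 0.16, adjusted p 0.00549, edgeR). The library kit does not mark strand, so reads of Zeb2 and of its antisense gene Zeb2os, with 37 to 291 counts per tumor, cannot be told apart where they overlap.

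Zeb1 (ENSMUSG00000024238), the close relative of Zeb2, was at 25.6, 27.3 and 23.2 CPM among YAP-S CCA and at 30.9, 32.8 and 28.9 CPM among YAP-SY CCA tumors. The YAP-SY tumors were the higher ones, without overlap, but the difference missed the threshold (log2 fold change 0.28, SE 0.12, adjusted p 0.0815, edgeR). It passed by the Wald test of DESeq2 (0.30, adjusted p 0.0456), and under library size alone it was -0.28 (adjusted p 0.055, edgeR).

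Twist2 (ENSMUSG00000007805, chromosome 1, 91801461 to 91848028), a basic helix-loop-helix factor of mesenchyme, held 34, 50 and 18 counts in YAP-S CCA tumors and 0, 1 and 0 counts in YAP-SY CCA tumors. Detection in a YAP-SY CCA tumor thus rested on a single count. Summed over tumors and divided by scaled library sizes, 1 count against 102 was a 51.9-fold lower level, with an exact 95% interval for counting error of 9.11 to 2070. The call was made at an adjusted p of 0.00826 (edgeR), and the fitted fold change depends on the prior count. Twist1 (ENSMUSG00000035799, chromosome 12, 33957671 to 33959817), its close homolog, was at 0.535, 0.372 and 0.234 CPM among YAP-S CCA and at 0.249, 0.252 and 0.501 CPM among YAP-SY CCA tumors. These ranges overlapped, at 9 to 53 counts a tumor, and the difference did not pass (log2 fold change -0.21, SE 0.56, adjusted p 0.793, edgeR).

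**Figure D2:**
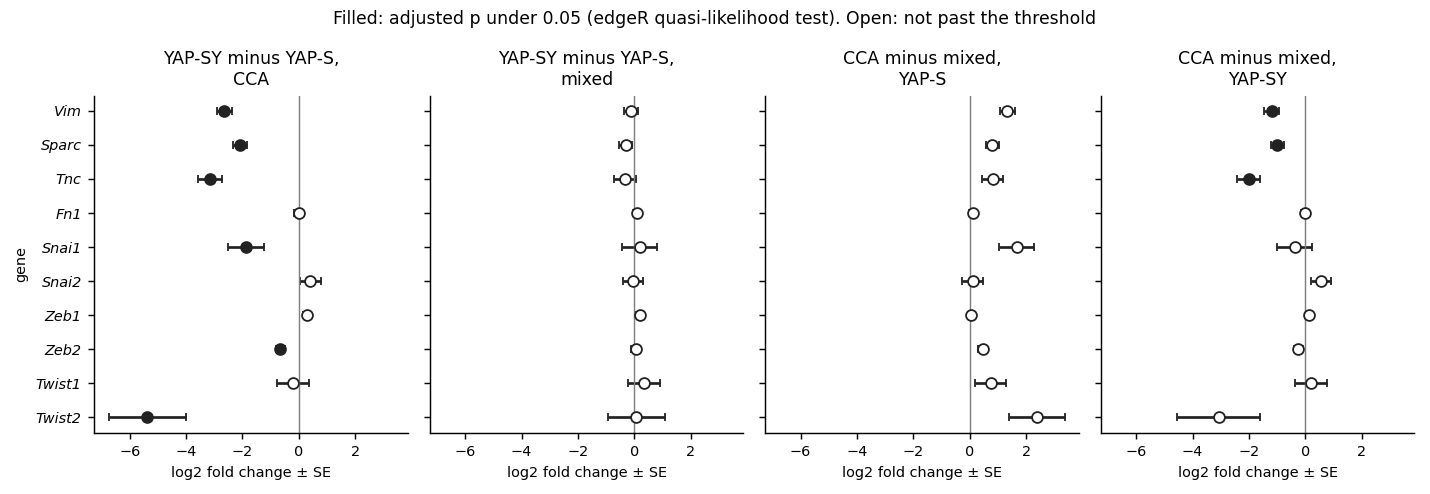
Log2 fold change of each member in 4 comparisons, with bars for the standard error; filled points passed an adjusted p of 0.05 in edgeR and open points did not. Of the 10 members, 6 are filled on the lower side for YAP-SY in CCA, 0 in mixed tumors, 0 for CCA in YAP-S and 3 on the lower side for CCA in YAP-SY.

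In mixed tumors, the same contrast of the YAP forms showed no called difference in the members. Vim was at 74.3, 147 and 170 CPM among YAP-S mixed tumors 2, 7 and 9 and at 92.8, 122 and 145 CPM among YAP-SY mixed tumors 3, 5 and 9. Sparc was at 507, 769 and 547 CPM among YAP-S mixed and at 438, 618 and 423 CPM among YAP-SY mixed tumors. Tnc was at 9.91, 19.1 and 29.1 CPM among YAP-S mixed and at 20.9, 10.4 and 14.8 CPM among YAP-SY mixed tumors. In each of these 3 effectors the ranges overlapped widely. Fn1 was at 1996, 2005 and 1972 CPM among YAP-S mixed and at 1964, 2399 and 2001 CPM among YAP-SY mixed tumors, again with overlap.

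The factors overlapped as well between the mixed groups. Snai1 ran from 0.484 to 0.864 CPM among YAP-S mixed and from 0.171 to 1.09 CPM among YAP-SY mixed tumors, where tumor 5 was low. Snai2 ran from 2.65 to 3.67 CPM among YAP-S mixed and from 2.59 to 3.81 CPM among YAP-SY mixed tumors. Zeb1 ran from 22.8 to 27.5 CPM and from 27.2 to 28.8 CPM, and Zeb2 from 23.1 to 31.4 CPM and from 23.6 to 32.1 CPM, in YAP-S mixed and YAP-SY mixed tumors in this order. Twist1 stayed at 0.130 to 0.366 CPM over these 6 tumors. Twist2 held 3, 11 and 0 counts in YAP-S mixed and 1, 1 and 24 counts in YAP-SY mixed tumors, a ratio of 1.19 of YAP-SY to YAP-S with an exact 95% counting interval of 0.598 to 2.46. The edgeR test called 0% of all genes in this comparison, and 0 of the 10 members had an unadjusted p under 0.05, where 551 of all genes did. DESeq2 called 11 of all genes and 0 members, and limma-voom called 0 genes. Fold changes of the members ran from -0.33 for Tnc (SE 0.38) and -0.30 for Sparc (SE 0.23) to 0.33 for Twist1 (SE 0.57) on the log2 scale, with a median of 0.06 against 0.02 over all genes, and the adjusted p was 0.999 for each member (edgeR).

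The difference of the YAP-SY effect between CCA and mixed tumors was tested directly as an interaction term. It was past the threshold for 4 of the 10 members, all with the lower YAP-SY value in CCA, where 10.2% of all genes were called in that direction. Vim differed by -2.52 (log2, SE 0.37, adjusted p 0.00341), Sparc by -1.80 (SE 0.33, adjusted p 0.00653) and Tnc by -2.82 (SE 0.55, adjusted p 0.00792), by edgeR. Zeb2 differed by -0.71 (SE 0.22, adjusted p 0.0476, edgeR), a call that was lost without any of 10 of the 12 tumors, at adjusted p from 0.0547 (without YAP-SY mixed 9) to 0.126 (without YAP-S mixed 2). It remained past the threshold only without YAP-S mixed 9 or YAP-SY mixed 3. Twist2 (adjusted p 0.0523) and Snai1 (-2.05, adjusted p 0.134) did not pass, although both were called within CCA. Snai1 passed without YAP-SY CCA 1 (-2.94, adjusted p 0.0421) or without YAP-SY mixed 5 (-2.53, adjusted p 0.0431), and Twist2 without YAP-S mixed 7 (adjusted p 0.042) or without YAP-SY mixed 5 (adjusted p 0.045).

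Among YAP-S tumors, CCA was set against mixed histology. This comparison and the next share their tumors with those above, so only each one's own values are given. The YAP-S CCA tumors were above every YAP-S mixed tumor for 6 of the 10 members (Vim, Sparc, Fn1, Snai1, Zeb2 and Twist2), and 20.2% of all genes were higher in CCA without overlap. None of the 10 members passed edgeR's test, which called 0% of all genes. At an unadjusted p under 0.05 there were 5 members and 3636 of all genes. Vim was nearest to the threshold, at 2.51-fold higher in CCA (log2 1.33, SE 0.26, adjusted p 0.054). It passed by DESeq2 (adjusted p 0.000175), by limma-voom (0.0224) and in an edgeR fit of the 2 groups alone (0.027). DESeq2 called 2 members higher (Vim and Sparc), with 1037 of all 18318 genes higher and 476 lower. The fit of the 2 groups alone called 3 (Vim, Sparc and Snai1), with 1602 of 17782 genes higher and 791 lower. Snai1 was 3.17-fold higher in the main fit (log2 1.67, SE 0.63, adjusted p 0.17) and Fn1 1.07-fold higher (log2 0.10, SE 0.15, adjusted p 0.738).

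Among YAP-SY tumors, 3 effectors were lower in CCA. CCA tumors were below mixed tumors in Vim (2.28-fold, log2 -1.19, SE 0.26, adjusted p 0.0365), in Sparc (log2 -0.999, SE 0.23, adjusted p 0.0421) and in Tnc (4.03-fold, log2 -2.01, SE 0.40, adjusted p 0.0263), by edgeR. These 3 of the 10 members were also the ones that were lower without overlap, where 12.1% of all genes were, and 2.7% of all genes were called lower. Zeb1 was higher in CCA without overlap, at 28.9 to 32.8 against 27.2 to 28.8 CPM, and was not called (log2 0.14, SE 0.12, adjusted p 0.521, edgeR). The groups were nearly touching, at 28.94 against 28.84 CPM, and the share of all genes higher without overlap was not counted. No factor passed, and the closest, Twist2, had an adjusted p of 0.25. The 3 calls were lost together without YAP-SY CCA 1 (adjusted p 0.0967 for Vim, 0.0943 for Sparc and 0.0715 for Tnc) or without YAP-SY CCA 6 (0.108, 0.116 and 0.0856). Those fits called 102 of all 18725 genes and 0 of all 18951 genes lower, in this order. Sparc alone was left without YAP-SY CCA 8, Tnc alone without YAP-SY mixed 5, and Vim alone was lost without YAP-SY mixed 9 (0.0684). Of all genes, 311, 111 and 559 were called lower in those fits, in this order. In limma-voom (0.0626 to 0.0926) and in an edgeR fit of the 2 groups alone (0.0939 to 0.171) none of the 3 passed. These called 40 and 0 of all genes lower.

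Ratios of 2 members within a tumor do not depend on how libraries are scaled, and were formed per kilobase after the values had been seen. Each of these tests compares 3 with 3 tumors by an exact two-sided permutation test, whose smallest possible p is 0.1, so none can reach 0.05. The ratio of Zeb2 to Zeb1 was 0.717, 0.752 and 0.729 in YAP-S CCA and 0.385, 0.337 and 0.425 in YAP-SY CCA tumors. The groups did not overlap, with a log2 difference of -0.95 (exact permutation p 0.1, n = 3 per group). In mixed tumors the same ratio was 0.503, 0.559 and 0.588 in YAP-S and 0.421, 0.606 and 0.476 in YAP-SY, with overlap.

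The ratio of Snai1 to Snai2 was 0.678, 0.745 and 0.880 in YAP-S CCA tumors. It was 0.725, 0.0575 and 0.0716 in YAP-SY CCA tumors 1, 6 and 8, so that tumor 1 lay inside the YAP-S range and the other two far below it (exact permutation p 0.2, n = 3 per group). Among YAP-SY mixed tumors 3, 5 and 9 the ratio was 0.422, 0.0563 and 0.527, which left tumor 5 at the level of YAP-SY CCA tumors 6 and 8. Against Fn1, which overlapped between the groups, log2 ratios of Vim averaged -1.42 ± 0.179 among YAP-S CCA and -4.04 ± 0.154 among YAP-SY CCA tumors (SD, n = 3, exact permutation p 0.1). Sparc to Fn1 averaged 0.77 ± 0.0740 and -1.34 ± 0.277, and Tnc to Fn1 -5.46 ± 0.546 and -8.56 ± 0.485 (SD, n = 3, exact permutation p 0.1 for each). All 3 sets of ratios were free of overlap. The 20 tests of 5 ratios in 4 comparisons were not adjusted further, since none can pass.

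**Figure D3:**
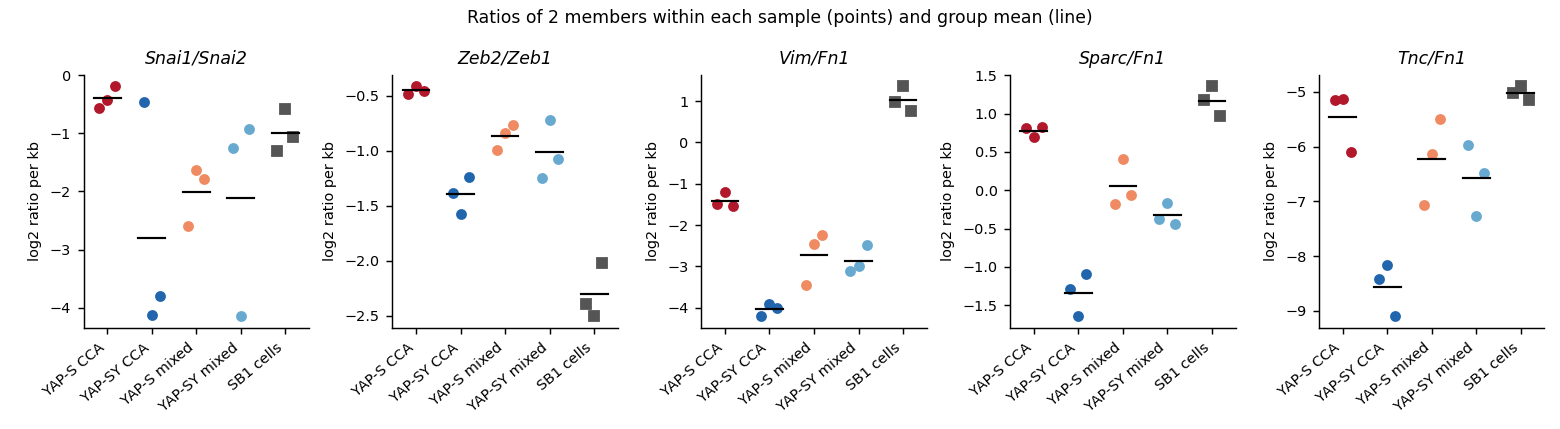
Log2 ratio per kilobase of pairs of members within each of the 12 tumors (circles) and 3 SB1 samples (squares), with lines for group means. YAP-S and YAP-SY CCA tumors do not overlap for Zeb2 to Zeb1 or for Vim, Sparc and Tnc to Fn1, while for Snai1 to Snai2 YAP-SY CCA tumor 1 lies among the YAP-S CCA tumors.

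Other genes of the transition were taken from a list of 36, and all 36 were tested. In CCA tumors 29 of them fell and 1 rose, with a median log2 fold change of -1.73, where 20.8% and 18.3% of all genes were called with a median of -0.0011. The TGF-beta ligands, strong inducers of the transition, were among the lower ones: Tgfb3 fell by 3.50 on the log2 scale (SE 0.31, adjusted p 8.84e-05, edgeR) and Tgfb1 fell by 1.65 (SE 0.32, adjusted p 0.00187). Lox, which crosslinks collagen, fell by 2.93 (SE 0.29, adjusted p 9.84e-05), and Acta2, the actin of smooth muscle and myofibroblasts, fell by 2.65 (SE 0.25, adjusted p 8.84e-05). Col1a1, a chain of type I collagen, went from 286 ± 78.9 to 26.2 ± 17.2 CPM (SD, n = 3, log2 -3.45, adjusted p 0.000366, edgeR). The single riser was N-cadherin, Cdh2 (0.47, SE 0.13, adjusted p 0.0137), a cadherin of mesenchymal cells that hepatocytes also carry. Its call was lost without YAP-S CCA 5 (0.39, adjusted p 0.0792), and it turned to -0.09 under library size alone. In mixed tumors 0 of the 36 passed. The interaction was lower in CCA for 22 of 36, where 10.2% of all genes were. Within YAP-SY 10 of 36 were lower in CCA than in mixed tumors, where 2.7% of all genes were.

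Genes of the epithelial state were also lower more often than higher. Of 30 listed, 29 were tested in CCA, 11 fell and 2 rose (Esrp2 and Pkp2) with a median of -0.52. Of all genes 20.8% were called lower and 18.3% higher. Cdh1, the E-cadherin that Snail and Zeb factors repress, was lower rather than higher in YAP-SY (log2 -0.76, SE 0.26, adjusted p 0.0349, edgeR). That call was lost without any of 5 of the 6 CCA tumors, at adjusted p from 0.0519 (without YAP-S CCA 3) to 0.123 (without YAP-SY CCA 6), and held without YAP-SY CCA 1 (-0.88, adjusted p 0.0364). Ehf, an epithelial ETS factor, fell by 2.50 (SE 0.38, adjusted p 0.000465), and the keratins Krt8 (-1.29, adjusted p 0.001) and Krt18 (-1.06, 0.00246, edgeR) were lower too. Epcam fell by 1.23 (adjusted p 0.0302), a call lost without any of 4 CCA tumors, at adjusted p from 0.0607 (without YAP-SY CCA 8) to 0.109 (without YAP-SY CCA 6). Without YAP-SY CCA 6, 7 epithelial genes were lower, where 3211 of all 18951 genes were. Esrp2, a splicing factor of epithelia, rose by 0.75 (SE 0.16, adjusted p 0.00279).

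Receptors and partners of the effectors fell in 9 of 14 and rose in 1 (Ptprb), with a median of -0.84, where 20.8% of all genes were called lower and 18.3% higher. No gene of this list was called higher under library size alone or without YAP-S CCA 3, YAP-S CCA 5, YAP-SY CCA 6 or YAP-SY CCA 8. Of all genes 760 were called higher under library size alone, and 2090 to 3029 in those fits without a tumor. The list shares Itga5, Itgb1, Itgav, Itgb6 and Cd44 with the list of other transition genes. Itgav, the alpha chain of integrins that bind fibronectin, fell by 1.66 (SE 0.19, adjusted p 0.000147), and Itga9, an integrin chain that binds tenascin C, fell by 0.76 (SE 0.12, adjusted p 0.000644, edgeR). Col4a1, a basement membrane collagen, fell by 2.05 (SE 0.25, adjusted p 0.000175).

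Markers of other cell types moved beside the members in the CCA comparison, where 20.8% of all genes were called lower and 18.3% higher. Of 18 stellate cell and fibroblast markers 11 fell and 0 rose (median -1.49). Their summed level was 2618 to 3106 CPM among YAP-S CCA and 708 to 967 CPM among YAP-SY CCA tumors, and no marker was at 0 in any tumor. Col1a1, Col1a2, Col3a1 and Acta2 are also on the list of other transition genes. Pdgfrb, a receptor of pericytes and stellate cells, fell by 1.66 (SE 0.18, adjusted p 0.000114) and Col3a1 fell by 2.37 (SE 0.26, adjusted p 0.000122, edgeR), while Dcn (-0.20, adjusted p 0.359) and Lrat (0.41, adjusted p 0.491) did not pass.

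Leukocyte and macrophage markers fell in 8 of 12 and rose in 1 (Clec4f), with a median of -1.28 and a summed level of 544 to 986 CPM among YAP-S CCA and 341 to 496 CPM among YAP-SY CCA tumors. No leukocyte marker was called higher when any one of the 6 CCA tumors was left out, under library size alone, upper quartile factors or no count filter, or with the replicate block. Across these settings 760 (library size alone) to 3303 (replicate block) of all genes were called higher. The lower ones included Cd14 (log2 fold change -2.95, adjusted p 0.000769), Tyrobp (-1.49, 0.00158), Laptm5 (-1.67, 0.00293) and Ptprc (-1.18, 0.0127), by edgeR. Of 12 endothelial markers 3 were lower and 2 higher, near the shares of all genes (20.8% lower and 18.3% higher), with a median of -0.11 and a summed level of 395 to 513 CPM among YAP-S CCA and 475 to 592 CPM among YAP-SY CCA tumors. Cdh5 (-0.43, adjusted p 0.0122) and Emcn (-0.56, 0.0129) were lower and Clec4g higher (0.77, 0.0335), while Pecam1 did not pass (-0.32, 0.0521). The median of the endothelial list turned to 0.04 without YAP-SY CCA 1. The number higher was 0 without YAP-S CCA 5 or YAP-SY CCA 8, 1 without YAP-S CCA 3, YAP-SY CCA 1 or YAP-SY CCA 6, and 4 without YAP-S CCA 4. In these fits 2090 to 3278 of all genes were higher, with 2715 of 18679 without YAP-S CCA 4. Under library size alone 6 endothelial markers were lower and 0 higher, where 8064 of all 18318 genes were lower and 760 higher.

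With 20.8% of all genes called lower, cholangiocyte markers fell in 7 of 10 (median -2.06). Among them were Cd24a (log2 fold change -2.98, adjusted p 0.000191), Sox9 (-1.997, 0.00112) and Krt19 (-3.20, 0.0247), by edgeR. The count was 4 without YAP-SY CCA 6, where 3211 of all 18951 genes were lower. It was also 4 without YAP-SY CCA 8 and YAP-SY mixed 3 together, where 3560 of all 19070 genes were lower. The Krt19 call was lost without YAP-S CCA 4, YAP-SY CCA 6 or YAP-SY CCA 8 (adjusted p 0.0656, 0.0882 and 0.0675, edgeR). Hepatocyte markers rose in 8 of 10 (median 1.10), among them Alb (1.51, adjusted p 0.000283), Apob (1.56, 0.000199) and Serpina1c (1.17, 0.000901, edgeR). Of all genes 18.3% were called higher. In mixed tumors 0 markers of any of these lists passed edgeR's test. The part of each of these cell types in the values of the 10 members was not tested.

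**Figure D4:**
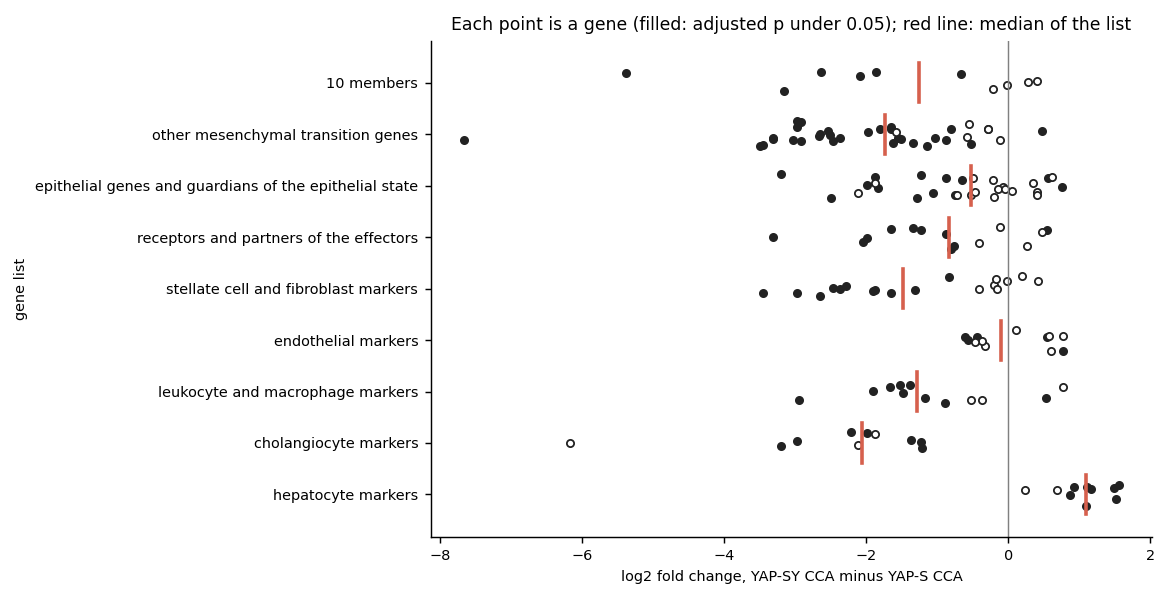
Log2 fold change of YAP-SY against YAP-S in CCA tumors for the 10 members and the genes of 8 lists; each point is a gene, filled where the adjusted p was under 0.05, and the line is the median of the list. The medians run from -2.06 for cholangiocyte markers to 1.10 for hepatocyte markers, with the members at -1.26.

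The members varied among themselves across the 12 tumors in a few recurring patterns. Pearson's r of log2 CPM is given here as a description without a test, since the tumors share 4 groups and a histology. Vim tracked Sparc (0.92), Zeb2 (0.90) and Tnc (0.89), and Zeb2 tracked Sparc at 0.81. Twist2 followed Vim at 0.79 and Snai1 at 0.72, and Snai1 followed Vim at 0.66. Zeb1 ran against Sparc (-0.78) and against Vim (-0.55), and r between Zeb1 and Zeb2 was -0.33. Within the other families r was -0.49 between Snai1 and Snai2 and 0.39 between Twist1 and Twist2. Fn1 tracked none of the other effectors closely, at 0.10 with Vim, 0.23 with Sparc and -0.18 with Tnc.

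Over 10579 tested genes with a mean of at least 5 CPM, the 3 most like each member were named by the same measure over 12 tumors. For Vim these were Crtap (0.993), Sema4b (0.993) and Piezo2 (0.991), and for Sparc they were Tulp3 (0.994), Cd63 (0.988) and Zmat3 (0.987). Tnc was most like Slc1a4 (0.964), Tagln (0.959) and Tpm4 (0.958). Among the factors, Zeb2 was most like Parp8 (0.977), Kif3a (0.970) and Tbpl1 (0.962), and Zeb1 most like Mapk1ip1l (0.978), Ubp1 (0.940) and Glul (0.937). Snai1 was most like Kcne3 (0.961), Zfp511 (0.914) and Ptdss2 (0.899), and Twist2 most like Micall2 (0.900), Kank3 (0.896) and Man1c1 (0.895). Fn1 was most like Wbp2 (0.957), Nrde2 (0.937) and Wipi1 (0.904), Snai2 most like Bnip1 (0.879), Bach2 (0.864) and Tmbim1 (0.856), and Twist1 most like Smad1 (0.863), Cda (0.859) and Pth1r (0.844).

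The SB1 line shows the members in cultured cells. Its raw counts stand in a table of their own, so tumor and cell values are set side by side with no test, both scaled by library size alone. Vim was at 1719, 1730 and 1683 CPM in the 3 SB1 samples and at 369 to 427 CPM among YAP-S CCA tumors. Per length it ranked at the 99.6th percentile of 22032 protein-coding genes in each SB1 sample and at the 97th to 97.5th in YAP-S CCA tumors. Vimentin transcript was thus abundant in SB1 cells.

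Sparc was at 1409, 1226 and 1376 CPM in SB1 samples and at 1129 to 1382 CPM among YAP-S CCA tumors. Tnc was at 44.3, 37.1 and 46.1 CPM in SB1 and at 26.5 to 47.9 CPM in the tumors, and Fn1 at 2157, 1658 and 2446 CPM in SB1 and at 2430 to 2717 CPM in the tumors. These 3 matrix genes therefore had SB1 levels near those of the YAP-S CCA tumors on this scale. Zeb1 was at 55.3, 54.8 and 49.4 CPM in SB1 against 30.0 to 31.2 CPM in the tumors, while Zeb2, at 20.4, 18.8 and 23.7 CPM, was below the 41.8 to 45.7 CPM of the tumors. The Zeb2 to Zeb1 ratio per kilobase was 0.190, 0.176 and 0.247 in SB1, lower than in any of the 12 tumors, where 0.337 was the lowest.

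Snai1 was at 3.44, 4.42 and 3.35 CPM in SB1 and at 2.20 to 2.76 CPM among YAP-S CCA tumors, and Snai2 at 10.6, 8.29 and 8.79 CPM and at 3.67 to 4.63 CPM. Twist2 was at 11.1, 11.8 and 15.2 CPM in SB1 (340, 298 and 399 counts) and at 0.402 to 0.666 CPM among YAP-S CCA tumors. Twist1 remained scarce, at 0.982, 1.46 and 1.45 CPM in SB1. Twist2 thus stood above Twist1 in SB1, where both were low in the tumors.

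SB1 cells held epithelial and mesenchymal transcripts side by side. Krt8 was at 1593 ± 203, Krt18 at 1310 ± 145 and Krt19 at 1429 ± 346 CPM (SD, n = 3), Cdh1 at 219 ± 28.5 CPM and Cdh2 at 196 ± 26.6 CPM. Of the 36 other transition genes 31 had at least 1 CPM in all 3 samples, and of the 30 epithelial genes 18 did. Epcam was nearly absent at 0.235 ± 0.144 CPM, and Cldn7 and Ovol2 were at 0 counts in all 3 samples, where 3 counts is the limit that a count of 0 allows. At least 1 CPM in all 3 samples was reached by 11 of 18 stellate cell and fibroblast markers. It was reached by 2 of 12 endothelial and 3 of 12 leukocyte and macrophage markers. Some of these markers were at or near 0: Lum and Lrat at 0 counts, Pecam1 at 0.226 ± 0.112 CPM, and Ptprc at 3 counts over the 3 samples. Other markers on those lists were not low. Pdgfrb was at 63.7 ± 5.66 and Dcn at 245 ± 69.4 CPM, the endothelial marker Flt1 at 53.9 ± 16.5 CPM, and the leukocyte and macrophage markers Csf1r at 54.5 ± 16.2 and Cd14 at 96.2 ± 10.5 CPM. Of the 10 cholangiocyte markers 7 had at least 1 CPM in all 3 samples, and their summed level was 2783 to 3230 CPM. Of the 10 hepatocyte markers 7 did as well, at a summed level of 727 to 1235 CPM, with Alb at 779 ± 289 CPM.

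**Figure D5:**
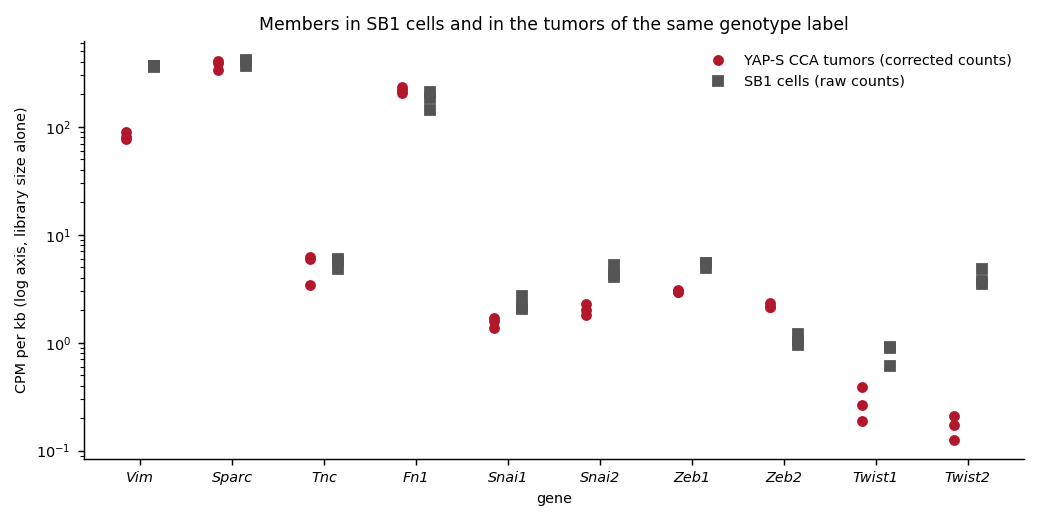
Level of each member per kilobase, in CPM by library size alone on a log axis, in 3 YAP-S CCA tumors (circles, corrected counts) and 3 SB1 samples (squares, raw counts). Vim, Snai1, Snai2, Zeb1, Twist1 and Twist2 lie higher in every SB1 sample than in any of the tumors and Zeb2 lies lower, while Sparc, Tnc and Fn1 overlap.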

How the data were processed

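RNA from liver tumors and the SB1 line was sequenced with TruSeq mRNA v2 libraries, which do not mark strand, per the labels' protocols. Reads were aligned with STAR to mm10, per the submitters' processing notes, and the counting tool and annotation are not given in the sources used here. The authors deposited whole-number counts per gene, called corrected for the tumors (the correction is not stated) and raw for SB1. In the SB1 table, 3 further columns matched no sample label and were not used. edgeR 4.0.16 in R 4.3.3 fitted all 12 tumors with a term per group (TMM scaling, filterByExpr by group, quasi-likelihood F-test, Benjamini-Hochberg adjustment, threshold 0.05). limma 3.58.1 (voom) and DESeq2 1.42.0 were alternatives, and the 3 fits were tested on simulated data. Alternatives also changed the scaling, the filter, the groups fitted and left out each tumor. SD is over 3 samples. The members and lists were chosen with earlier results of these data known. From each of 8 lists, the 3 genes of smallest p and 11 preset genes (Cdh1, Cdh2, Epcam, Tgfb1, Col1a1, Acta2, Pdgfrb, Ptprc, Pecam1, Krt19 and Alb) were named, except for a gene that is not reported here. Esrp2, Pkp2, Ptprb, Clec4f, Dcn, Lrat, Lum, Csf1r, Flt1, Cldn4, Cldn7, Krt7 and Ovol2 were named after their values were seen. Ratios, list counts under the alternatives, and the fit without the 2 tumors whose sample names begin with Mut1 (YAP-SY CCA 8 and YAP-SY mixed 3), were also chosen after seeing the data.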

Additional observations from a re-analysis of the deposited data

Results flagged for a closer look

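The YAP-SY effect differed between CCA and mixed tumors for 4 of the 10 members, by an interaction term in edgeR's quasi-likelihood test that called 10.2% of all genes in the same direction. The difference of the log2 fold changes was -2.52 for Vim (adjusted p 0.00341), -1.80 for Sparc (0.00653), -2.82 for Tnc (0.00792) and -0.707 for Zeb2 (0.0476). The Zeb2 call was lost without any of 10 of the 12 tumors, at adjusted p from 0.0547 (without YAP-SY mixed 9) to 0.126 (without YAP-S mixed 2). In each of these genes all 3 YAP-SY CCA tumors were below all 3 YAP-S CCA tumors, while the mixed groups overlapped. In the same test 7 of 18 stellate cell and fibroblast markers, 5 of 12 leukocyte and macrophage markers and 4 of 10 cholangiocyte markers were lower, and 7 of 10 hepatocyte markers were higher, where 1868 of all 18318 genes were lower and 920 higher. Their part in the values of Vim, Sparc, Tnc and Zeb2 was not tested.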

How the results depend on the processing

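Over all alternatives, the values of the members kept their direction and side of the threshold in 684 instances, turned direction in 44, passed only under the alternative in 20 and no longer passed in 39. The cause was not tested in any of these. The count of 6 members lower in CCA tumors stayed within 1.5 times under every alternative run, where 3031 to 8064 of all genes were lower. So did the count of 4 in the interaction, where 856 to 4180 of all genes were lower. That band allows single calls to be lost, as those of Snai1 in CCA and Zeb2 in the interaction were without most single tumors. For CCA against mixed tumors in YAP-S, members called higher were 1 (Vim) under library size alone (682 of all 18318 genes), DESeq2 size factors (97), upper quartile factors (105), limma-voom (618) and no count filter (448 of 27708), 2 under the DESeq2 Wald test (1037) and 3 with only the groups compared (1602 of 17782). For YAP-SY against YAP-S in CCA, DESeq2 called 1 of 10 members higher, as it did 3835 of all 18318 genes, and leaving out a tumor gave 0 to 1, where 2090 to 3278 of all genes were higher. For CCA against mixed tumors in YAP-SY, members called lower were 0 under limma-voom (40 of all genes) and 0 with only the groups compared (0 of all genes). They were 0 to 3 when leaving out a tumor, where 0 to 559 of all genes were lower. The Zeb2 interaction was lost under DESeq2 size factors (-0.693, adjusted p 0.0513) and with no count filter (-0.723, 0.0567).

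Library size alone turned Snai2 (-0.155), Zeb1 (-0.281) and Cdh2 (-0.0914) in CCA, Twist2 in mixed tumors (-0.0135), the interaction of Snai2 (-0.0603) and Zeb1 (-0.415), and Zeb1 (-0.151) and Twist1 (-0.0748) for CCA against mixed in YAP-SY. It moved the calls in CCA tumors from 3813 lower and 3358 higher genes to 8064 and 760. Fn1 turned to 0.000435 in CCA and 0.0184 for CCA against mixed in YAP-SY under DESeq2 size factors, and to 0.000433 and 0.0184 under the DESeq2 Wald test. Under limma-voom Snai1 in mixed tumors was -0.142 and Fn1 for CCA against mixed in YAP-SY 0.00342. Without YAP-SY CCA 8 and YAP-SY mixed 3, Vim (0.0348) and Snai1 (-0.0355) turned in mixed tumors, as did Snai1 (0.102) and Twist1 (-0.052) for CCA against mixed in YAP-SY. That fit also ended the Snai1 call in CCA (-1.60, adjusted p 0.118) and the Tnc call for CCA against mixed in YAP-SY (-1.56, 0.0786).

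Leaving out each tumor in turn gave -0.0808 to 0.0587 for Fn1 and -0.618 to 0.104 for Twist1 in CCA. For CCA against mixed in YAP-S it gave -0.0334 to 0.232 for Snai2 and -0.0111 to 0.151 for Zeb1. In mixed tumors it gave -0.401 to 0.110 for Vim, -0.648 to 0.0767 for Tnc, -0.00636 to 0.144 for Fn1, -0.256 to 0.666 for Snai1, -0.226 to 0.0699 for Snai2, -0.0937 to 0.180 for Zeb2 and -1.88 to 1.28 for Twist2. For CCA against mixed in YAP-SY it gave -0.0691 to 0.0968 for Fn1, -1.28 to 0.0582 for Snai1 and -0.215 to 0.375 for Twist1.

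With a replicate block on the tumor number (limma-voom, consensus correlation 0.22), 6 members were called lower in CCA and 4 in the interaction, beside 3823 and 1955 of all 18318 genes. Members called higher for CCA against mixed in YAP-S were 1 (Vim, 1.43, adjusted p 0.0159) beside 767 of all genes, and those called lower in YAP-SY were 0 beside 44. Under the block Snai1 in mixed tumors turned to -0.0381 and Fn1 for CCA against mixed in YAP-SY to 0.00366. After group means were taken off log2 CPM, the same-numbered tumors of 2 groups correlated at 0.179 (number 3), 0.349 (number 5) and 0.0896 (number 9). The first tumor of each pair correlated with the other tumors of the second's group at -0.238 to 0.107, -0.283 to -0.139 and -0.208 to 0.0912. The labels do not say that a number marks a shared animal, so the numbers were not taken to pair the tumors. Twist1 and Twist2 had at most 53 and 50 counts per tumor, and whether depth limited their calls was not tested.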
